A study of Mus musculus with 7 samples.

Results

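The DNA replication and mitosis genes described here are 40 listed genes of the cell cycle, out of 55450 genes annotated in GENCODE M21 on mm10, of which 21951 are protein-coding. The list was given by name and all 40 were found. A peak was assigned to a gene when its centre fell in a window reaching 5 kb upstream and 1 kb downstream of the gene. The data are ChIP-seq peaks of mouse cerebellar granule cells on a C57BL/6 background (C57BL/6N in the study's methods), from WT animals and from animals in which *Chd7*, a gene for a chromatin remodelling ATPase, was deleted in the granule lineage (*Atoh1-Cre::Chd7* f/f, called *Chd7*-deficient here). Granule neuron progenitors (GNPs) were isolated fresh at P7 and used for ChIP of H3K27ac in WT cells and of Chd7 in WT and *Chd7*-deficient cells. Cerebellar granule neurons (CGNs) were obtained by culture of GNPs without the mitogen SHH for 48 hours and used for ChIP of the type II topoisomerase Top2b in WT and *Chd7*-deficient cells. Each condition was a single library of pooled cells, so no value below has an error between animals and none was tested. *Atoh1-Cre* is active in Atoh1-expressing cells of the rhombic lip lineage, so cells outside that lineage keep *Chd7*, and the study gives WT in its other assays as *Chd7* f/f without the Cre.

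GNPs divide in the outer layer of the postnatal cerebellum under SHH until they leave the cell cycle and become granule neurons. In a dividing cell, Cdc6 and Cdt1 load the Mcm2-7 helicase onto origins, Mcm10, Cdc45 and the GINS proteins turn it on, and the polymerase clamp Pcna, its loader Rfc and the nucleotide enzymes keep synthesis going. E2f factors drive the genes of S phase, while Foxm1 and Mybl2 drive those of mitosis, where Cdk1 with its B cyclins, the Aurora and Polo kinases and the Bub checkpoint proteins act. H3K27ac marks active promoters and enhancers.

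The H3K27ac library held 31400 peaks, the Chd7 libraries 1946 peaks in WT and 96 in *Chd7*-deficient GNPs, and the Top2b libraries 17030 peaks in WT and 21505 in *Chd7*-deficient CGNs. Read totals are not in the tables, so depth is known only through the peaks: no Chd7 peak was called under a pileup of 12 fragments in WT GNPs, or under 14 fragments without *Chd7*. All 9 markers of GNPs examined (*Atoh1*, *Pax6*, *Zic1*, *Zic2*, *Barhl1*, *Neurod1*, *Gli1*, *Gli2* and *Mycn*) had H3K27ac at the promoter, at folds from 3.55 for *Atoh1* to 31.6 for *Zic1*. Of 12 markers of other cerebellar cells, 2 had it (*Mbp* at 7.30-fold and *Slc32a1* at 3.95-fold). The peak tables cannot tell a mark in fewer cells from a weaker mark in every cell.

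All 40 genes had an H3K27ac peak in the window in WT GNPs, where 53.0% of protein-coding genes and 29.5% of all annotated genes had one. All 40 also had a peak with a base within 1 kb of their own start, here called the promoter, against 42.9% of protein-coding genes. Since every one of them was acetylated at the promoter, the 9416 protein-coding genes with promoter H3K27ac, of which 9414 (100%) had a peak centre in the window, are the closer comparison for the values that follow. Fold enrichment is the height of the peak over the local background as macs2 gives it. The median promoter fold of the 40 genes was 8.75, with a range from 2.62 at *Ccnd2* to 27.1 at *Cdk4*, and that of the 9416 genes was 8.48. A promoter fold over 10 was found at 16 of the 40 genes (40%) and at 40.2% of the 9416. The median promoter peak was 1172 bp wide, against 1071 bp. The replication and mitosis genes thus all carried the mark, at heights and widths near those of other acetylated promoters.

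**Figure D1:**
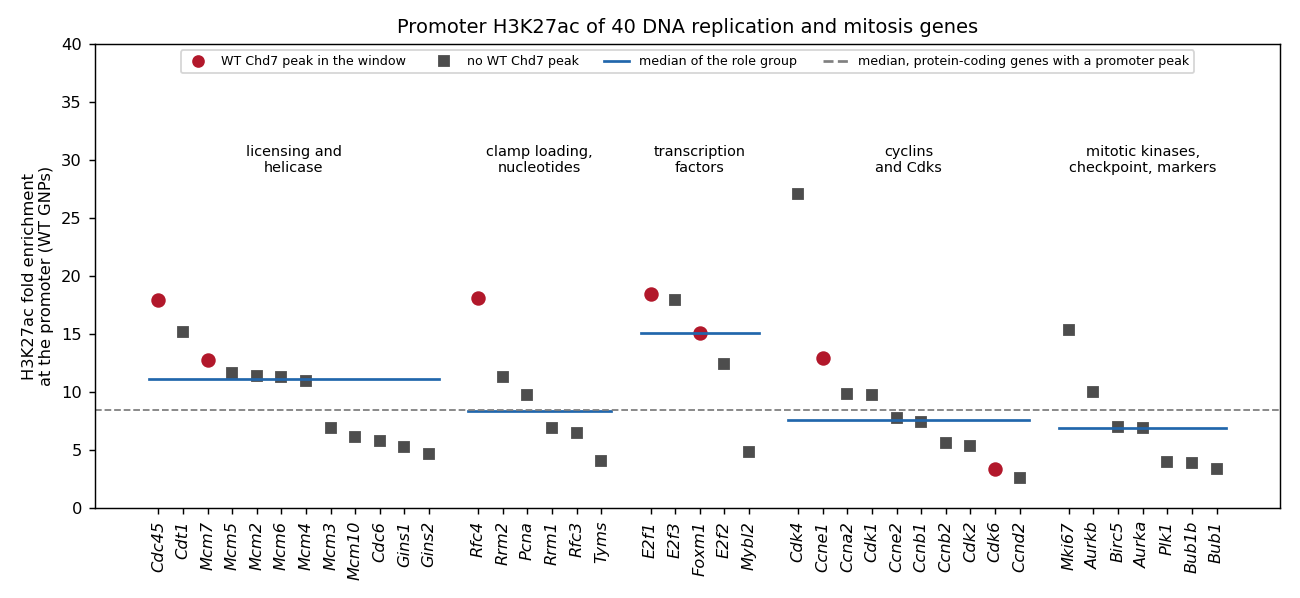
Fold enrichment of H3K27ac at the promoter (vertical axis, strongest peak within 1 kb of the gene start) in WT GNPs for each of the 40 genes, grouped by role. Red circles are the 7 genes with a WT Chd7 peak and grey squares the other 33, blue lines are group medians and the dashed line is the median of 8.48 over protein-coding genes with a promoter peak. *Cdk4* stands highest at 27.1. The medians of the cyclins and Cdks and of the mitotic genes lie below the dashed line, and that of the clamp and nucleotide genes just below it at 8.35.

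The groups are small, and their medians differed in height, which was not tested. The 5 cell-cycle transcription factors had the highest median promoter fold, 15.1. *E2f1* stood at 18.5-fold with a pileup of 142 fragments, *E2f3* at 17.9-fold and *E2f2* at 12.47-fold, so the activating E2f factors were all above the median of acetylated genes. *Foxm1* stood at 15.1-fold. *Mybl2*, the B-Myb gene, was the exception in this group at 4.87-fold.

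The 12 licensing and helicase genes had a median of 11.2. *Cdc45*, whose product joins the helicase when the origin fires, was highest at 17.98-fold, followed by the licensing factor *Cdt1* at 15.2-fold. The Mcm2-7 subunits form a hexamer with 1 copy of each, and 5 of these 6 genes lay close together, from 11-fold at *Mcm4* to 12.8-fold at *Mcm7*. *Mcm3* was lower at 6.90-fold. *Mcm10* stood at 6.13-fold, the loader *Cdc6* at 5.78-fold, *Gins1* at 5.28-fold and *Gins2* at 4.69-fold, so the licensing factors Cdt1 and Cdc6 lay far apart in promoter fold.

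Of the 6 genes for the clamp, its loader and nucleotide supply, *Rfc4* was highest at 18.1-fold, while *Rfc3*, another subunit of the same loader, stood at 6.47-fold. The subunits of ribonucleotide reductase, which makes deoxynucleotides, stood at 11.3-fold for *Rrm2* and 6.91-fold for *Rrm1*. *Pcna* stood at 9.80-fold. *Tyms*, for thymidylate synthase, had 4.05-fold, and ranking the 40 genes by their strongest peak it was among the lowest 5.

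The 10 cyclin and Cdk genes held both extremes. *Cdk4*, the G1 kinase that pairs with D cyclins, had the highest value of the 40, with a pileup of 208.9 fragments and rank 285 of the 31400 H3K27ac peaks by fold. *Ccne1* stood at 12.9-fold, *Ccna2* at 9.84-fold and *Cdk1* at 9.73-fold. *Ccne2*, *Ccnb1*, *Ccnb2* and *Cdk2* lay between 5.41- and 7.77-fold. *Cdk6* and *Ccnd2*, the other G1 kinase and the D cyclin of the list, had the lowest promoter folds of the group, 3.40 and 2.62, at the gene start as annotated.

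These low values depend on which start is used, since these genes have other annotated transcript starts further inside. Over any annotated transcript start, the fold was 6.10 at *Ccnd2*, with the summit 3504 bp downstream of the gene start, and 4.43 at *Cdk6*, with the summit 2672 bp downstream, and the lowest of the 40 genes was then *Bub1* at 3.37-fold. *Ccnd2* had 8 peaks, the highest of which stood at 7.17-fold, 19.8 kb downstream of the start. *Cdk6*, the longest of the 40 genes at 189.5 kb, had 14 peaks, and an intronic one 53.8 kb from the start reached 16.1-fold, 6th highest among the strongest peaks of the 40 genes. *Gins1* was the only other gene whose promoter peak was not its strongest: a peak 4.31 kb from the gene start, at another annotated transcript start of *Gins1*, reached 9.84-fold. At the remaining 37 genes the promoter peak was the strongest of the window.

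The 7 mitotic kinase, checkpoint and marker genes had the lowest median of the role groups, 6.91. Other mitosis genes, described at the end, had a higher median of 9.28, so the low value was not general to mitosis genes. *Mki67*, which codes for the proliferation marker Ki67, was set apart at 15.4-fold. The Aurora kinase genes stood at 9.99-fold for *Aurkb* and 6.91-fold for *Aurka*, and *Birc5*, for the survivin subunit of the complex that holds Aurora B, at 7.02-fold. *Plk1* stood at 3.98-fold. The spindle checkpoint genes *Bub1b* and *Bub1* had 3.91- and 3.37-fold, and the *Bub1* peak, with a −log10 q-value of 4.80, had the lowest strongest fold of the list.

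In all, 85 H3K27ac peaks lay in the windows of the 40 genes. There were 46 at the promoter, 22 in introns, 8 in non-coding and 1 in coding parts of exons, 5 downstream and 3 upstream. A single peak was found at 22 genes (55.0%), against 55.7% of the 9416 acetylated genes. The summit of the promoter peak lay downstream of the start at 34 genes (85.0%), against 78.4%, with a median offset of 266.5 bp, against 233 bp. The peak itself covered the start in 26 genes (65.0%), against 72.2%. The summit at most of these promoters thus lay on the gene side of the start.

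A few of these promoters are shared. The start of another protein-coding gene on the opposite strand lay within 1 kb for 7 of the 40 genes (17.5%), against 10.9% of protein-coding genes and 21.8% of acetylated ones. The pairs were *Mcm4* with *Prkdc*, *Mcm7* with *Ap4m1*, *Cdc45* with *Ufd1*, *Gins1* with *Abhd12*, *Foxm1* with *Rhno1*, *Cdk2* with *Pmel*, and *Aurka* with *Cstf1*. A peak between such starts cannot be assigned to either gene. At *Gins1* the promoter summit lay at −1024 bp from the start, on the *Abhd12* side.

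Promoter sequence was examined because genes of S phase and of mitosis are known to carry different motifs: E2F sites in the former, and in the latter a cell cycle homology region (CHR) with CCAAT boxes, the sites of the DREAM and NF-Y complexes. RefSeq promoters on GRCm38.p6 (mm10), from 250 bases before to 50 after the RefSeq start, were matched for 32 of the 40 genes. The RefSeq start was not always the gene start used for the peaks. It lay furthest from it at *Cdk6* (2408 bp downstream), *Mcm7* (539 bp), *E2f1* (466 bp) and *Cdc6* (350 bp). *Mcm4*, *Gins1*, *Gins2*, *Foxm1*, *Ccnd2*, *Ccne2*, *Ccna2* and *Aurkb* had no entry. The letters searched on both strands were CCAAT for the CCAAT box, TTTGAA or TTCGAA for the CHR, and TTGGCGC as well as TTGCCGC and also TTCGCGC besides TTCCCGC for E2F. CCAAT overlapped another of these motifs in 2 of the 32 promoters.

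CCAAT was present in 22 of the 32 promoters (68.8%), against 38.8% of 16504 protein-coding promoters and 39.3% of the 7403 whose gene had promoter H3K27ac. E2F letters were in 16 (50%), against 12.6% and 19.3%. CHR letters were in 12 (37.5%), against 17.3% and 12.9%, and all 12 also held CCAAT, a pair found in 7.18% of protein-coding and 5.65% of acetylated promoters. Median GC content was 57.7%, against 57.0% and 61.7%. In the promoters of 89 other genes of the same pathways, described at the end, CCAAT was in 61.8%, E2F in 34.8%, CHR in 44.9% and CCAAT with CHR in 34.8%. By role, E2F letters were in 6 and CHR letters in 3 of 9 licensing and helicase promoters, in 4 and 1 of 6 clamp and nucleotide promoters, in 2 and 1 of 4 transcription factor promoters, in 3 and 2 of 7 cyclin and Cdk promoters, and in 1 and 5 of 6 mitotic promoters. The groups are small and the differences between them were not tested.

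**Figure D2:**
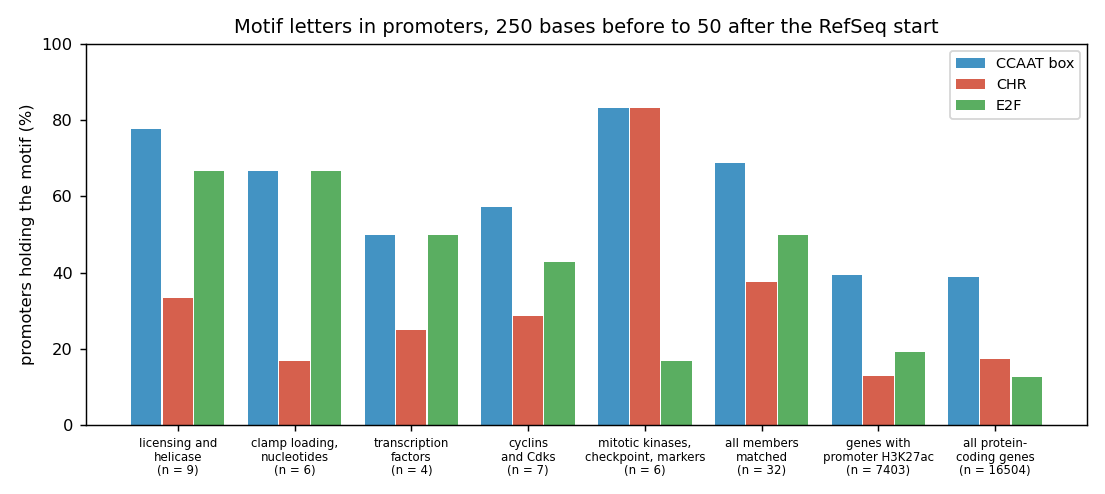
Share of RefSeq promoters (vertical axis, percent) that held CCAAT (blue), CHR (red) or E2F (green) letters on either strand, by role, with the number of promoters under each group. E2F letters were in 66.7% of the licensing and of the clamp and nucleotide promoters and in 16.7% of the mitotic ones, and CHR letters in 83.3% of the mitotic ones.

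The 150 bases upstream of the RefSeq start are shown for 4 genes that differ in the number or kinds of these letters. The letters are in capitals, and the sequence is 5′ to 3′ on the strand of the gene (the minus strand for all 4). *Mcm6* (chr1:128359706-128359855) has 2 runs where E2F matches on both strands overlap, and CCAAT on the reverse strand. *E2f3* (chr13:29986064-29986213) has all 3 kinds. *Ccnb2* (chr9:70421555-70421704) has 3 CCAAT boxes in a row, and its 2 CHR matches lie outside the bases shown. *Mki67* (chr7:135716380-135716529) also has all 3 kinds, with a repeated CHR beside E2F letters and CCAAT.
Mcm6: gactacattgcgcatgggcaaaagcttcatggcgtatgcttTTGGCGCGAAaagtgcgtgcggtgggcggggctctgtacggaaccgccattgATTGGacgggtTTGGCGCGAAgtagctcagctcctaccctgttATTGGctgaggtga
E2f3: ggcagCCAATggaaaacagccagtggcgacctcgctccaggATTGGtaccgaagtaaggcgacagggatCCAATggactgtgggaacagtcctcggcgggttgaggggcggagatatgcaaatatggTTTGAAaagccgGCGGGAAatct
Ccnb2: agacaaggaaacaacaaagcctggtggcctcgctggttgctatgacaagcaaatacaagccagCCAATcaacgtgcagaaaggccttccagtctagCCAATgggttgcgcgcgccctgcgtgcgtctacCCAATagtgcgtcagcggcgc
Mki67: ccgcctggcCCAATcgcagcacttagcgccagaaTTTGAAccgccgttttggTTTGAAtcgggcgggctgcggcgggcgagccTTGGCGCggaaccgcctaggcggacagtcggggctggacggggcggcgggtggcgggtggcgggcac
The CCAAT boxes of *Ccnb2* began 87, 54 and 21 bases upstream of the start. The *Mcm6* promoter was acetylated at 11.3-fold, *E2f3* at 17.9-fold, *Ccnb2* at 5.64-fold and *Mki67* at 15.4-fold.

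Chd7 was then examined at the same genes. In WT GNPs, 7 of the 40 genes (17.5%) had a Chd7 peak in the window, against 6.04% of protein-coding genes, 11.1% of those with promoter H3K27ac and 3.39% of all annotated genes. They were *Mcm7*, *Cdc45*, *Rfc4*, *E2f1*, *Foxm1*, *Ccne1* and *Cdk6*. At the promoter the count was 6 of 40 (15%), against 3.65% of protein-coding and 7.95% of acetylated genes, since the *Cdk6* peak was distal. The promoter peaks of *Mcm7*, *Cdc45* and *Foxm1* also lay within 1 kb of a start of *Ap4m1*, *Ufd1* and *Rhno1*, so they cannot be assigned to either gene. An opposite start was at 42.9% of the 7 genes with Chd7 and 12.1% of those without. Among acetylated protein-coding genes these shares were 22.1% and 21.7%. In *Chd7*-deficient GNPs none of the 40 genes had a Chd7 peak, where 0.0638% of protein-coding, 0.0106% of acetylated and 0.0577% of all annotated genes had one, and 0.0273% of protein-coding genes had one at the promoter. With 96 peaks in that library, few genes of any list could have one.

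**Figure D3:**
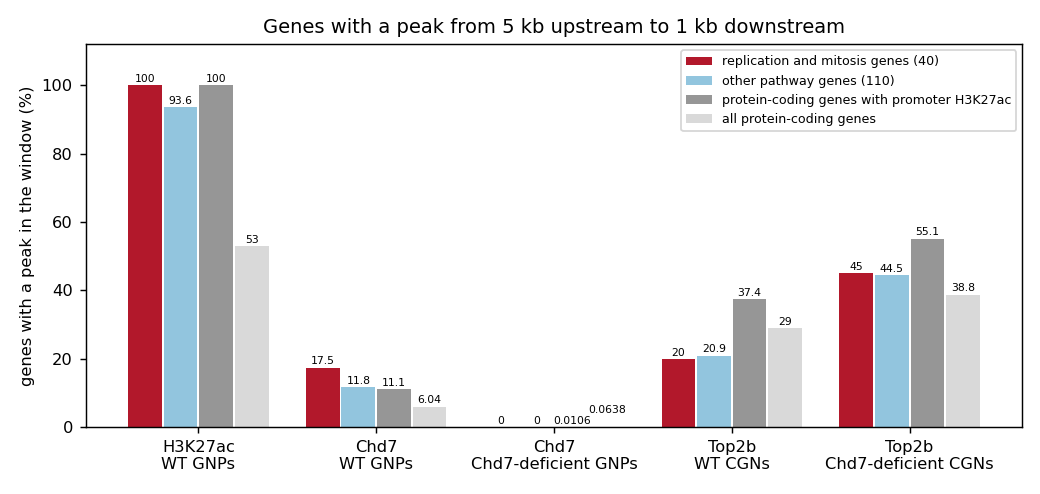
Share of genes (vertical axis, percent) with a peak in the window around the gene, in each of the 5 libraries. Red bars are the 40 replication and mitosis genes, light blue the 110 other pathway genes, dark grey the 9416 protein-coding genes with promoter H3K27ac and light grey all 21951 protein-coding genes. For Chd7 in WT GNPs the bars stand at 17.5, 11.8, 11.1 and 6.04%, and for Top2b the 40 genes lie below the acetylated genes in both genotypes.

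By role, Chd7 peaks were found at 2 of 5 transcription factor genes, 2 of 12 licensing and helicase genes, 2 of 10 cyclin and Cdk genes, 1 of 6 clamp and nucleotide genes and 0 of 7 mitotic genes. The 7 genes held 8 peaks, because *Cdc45* had a pair. The peaks were of ordinary height for the library. Their median fold was 4.12, against 4.07 for all 1946 WT peaks, 4 of the 8 lay above the library median, and by fold they ranked from 308 to 1306. The lowest pileup among them was 15 fragments and the highest 26.

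At *Rfc4* the peak was the highest of the 8, at chr16:23127916-23128340, with a pileup of 26 fragments, a fold of 4.995 and a −log10 q-value of 7.75. Its summit lay at −308 bp from the start, upstream, and 78 bp from the H3K27ac summit. At *Ccne1*, the E cyclin gene of the G1/S transition, the peak (chr7:38107143-38107853) was the widest at 711 bp and had a pileup of 18, a fold of 4.85 and a summit in an intron 243 bp downstream of the start. H3K27ac covered 49.1% of it, whereas it covered the whole of the other 6 Chd7 peaks that it overlapped.

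At *Foxm1* the summit lay at −4 bp from the start (chr6:128362842-128363149, pileup 20, fold 4.52), between *Foxm1* and *Rhno1*. At *Mcm7* it lay 1030 bp downstream of the start in an intron (chr5:138171098-138171520, pileup 21, fold 4.17) and 878 bp from the H3K27ac summit, the largest such distance among these peaks. At *E2f1* it lay in a coding exon 302 bp downstream of the start (chr2:154569446-154569764, pileup 20, fold 3.74), 12 bp from the H3K27ac summit. Relative to the gene start used here, the promoters with Chd7 thus differed in where Chd7 sat, from upstream of the start to the body of the gene. These positions depend on the start used: the RefSeq start lay 539 bp further downstream at *Mcm7* and 466 bp at *E2f1*. The *E2f1* summit lies upstream of that RefSeq start.

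At *Cdc45* a promoter peak (chr16:18811642-18811976, pileup 16, fold 3.90) had its summit 136 bp downstream of the start, and an intronic peak (chr16:18793415-18793718, pileup 15, fold 4.06) lay 18.5 kb downstream. The intronic one was the only one of the 8 without H3K27ac. At *Cdk6* the peak (chr5:3395041-3395344, pileup 19, fold 3.89) lay in an intron 53.7 kb from the start, within the intronic H3K27ac peak of 16.1-fold and 79 bp from its summit. At *Cdk6*, therefore, Chd7 was called at the strong distal peak and not at the peak of the gene start.

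**Figure D4:**
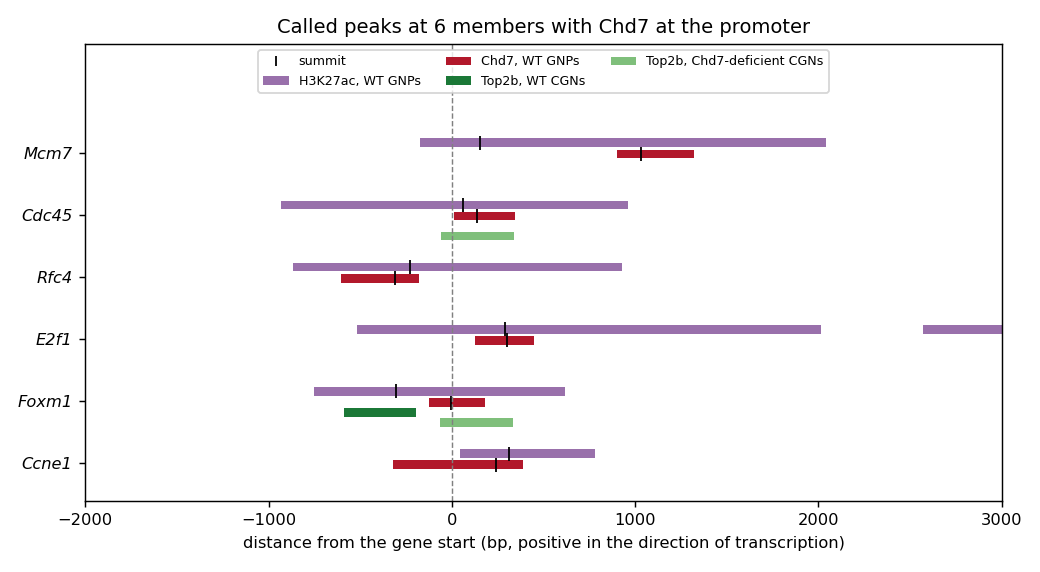
Called peaks around the start of the 6 genes with Chd7 at the promoter (horizontal axis, distance from the gene start in bp, positive in the direction of transcription). Bars are peaks of H3K27ac (purple) and Chd7 (red) in WT GNPs and of Top2b in WT (dark green) and *Chd7*-deficient CGNs (light green), and black ticks are summits. The Chd7 bar lies within the H3K27ac bar except at *Ccne1*, and Top2b bars are seen at *Cdc45* and *Foxm1* only.

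The 101 bases centred on the summit are shown for 4 of these peaks: *Rfc4* (chr16:23127995-23128095), the highest, *Mcm7* (chr5:138171342-138171442), which holds the only match to the searched letters among these 4, an E2F match in capitals, *E2f1* (chr2:154569540-154569640), in a coding exon, and *Cdk6* (chr5:3395139-3395239), the distal one. They are from GRCm38.p6 (mm10), 5′ to 3′ on the strand of the gene, which is minus for the former 3 and plus for *Cdk6*.
Rfc4: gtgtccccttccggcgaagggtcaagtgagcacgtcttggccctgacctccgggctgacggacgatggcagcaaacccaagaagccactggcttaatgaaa
Mcm7: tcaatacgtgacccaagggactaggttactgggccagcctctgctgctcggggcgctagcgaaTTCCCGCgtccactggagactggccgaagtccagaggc
E2f1: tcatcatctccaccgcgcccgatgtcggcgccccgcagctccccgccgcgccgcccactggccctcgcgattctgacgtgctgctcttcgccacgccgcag
Cdk6: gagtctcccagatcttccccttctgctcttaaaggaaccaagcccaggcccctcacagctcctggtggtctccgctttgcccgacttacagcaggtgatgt
Their GC content was 59.4% at *Rfc4*, 62.4% at *Mcm7*, 73.3% at *E2f1* and 57.4% at *Cdk6*. No CCAAT or CHR letters were present in these 4 windows.

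The genes with Chd7 were among the more strongly acetylated. Their median promoter fold was 15.1, against 7.02 for the 33 without, and in the acetylated protein-coding genes it was 12.8 with Chd7 and 8.13 without. Split by promoter fold, Chd7 peaks were found at 4 of 8 genes with a fold of 15 or more (23.2% of protein-coding genes at that height), 2 of 8 between 10 and 15 (12.3%), 0 of 16 between 5 and 10 (7.76%) and 1 of 8 below 5 (4.97%). The one below 5 was *Cdk6*. Strong acetylation did not always come with Chd7: *Cdk4*, *E2f3*, *Mki67* and *Cdt1*, at 27.1-, 17.9-, 15.4- and 15.2-fold, had no Chd7 peak, and the nearest WT Chd7 summit lay 84.8 kb from the start of *Cdk4*.

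**Figure D5:**
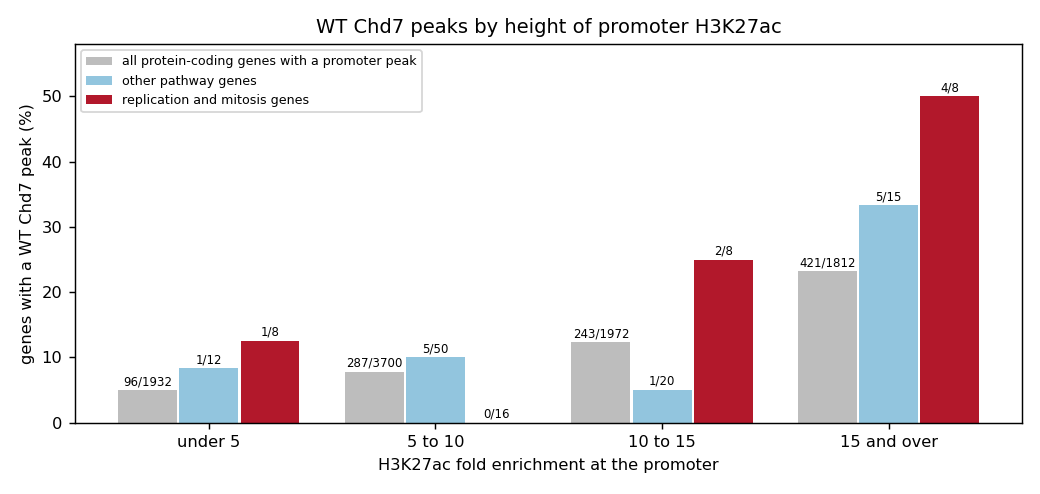
Share of genes with a WT Chd7 peak (vertical axis, percent) by fold enrichment of H3K27ac at the promoter (horizontal axis), for protein-coding genes with a promoter peak (grey), the 110 other pathway genes that had one (blue) and the 40 replication and mitosis genes (red), with genes with Chd7 over all genes above each bar. The grey share goes from 4.97% at the lowest to 23.2% at the highest fold, and 4 of the 8 red genes at 15 and over had Chd7.

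Of the 32 genes with a promoter sequence, CCAAT was in 2 of 6 with Chd7 and 20 of 26 without, CHR in 2 of 6 and 10 of 26, and E2F in 2 of 6 and 14 of 26. *E2f1*, *Ccne1* and *Cdk6* held none of the 3 in the sequence searched. At *E2f1*, *Cdk6* and *Mcm7* that sequence does not reach the gene start used for H3K27ac and Chd7. Their RefSeq starts lay 466, 2408 and 539 bp downstream of it. Median GC content was 67.0% with Chd7 and 57.7% without, and these differences, over 6 genes, were not tested.

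With 50 kb on either side of the gene, 10 of the 40 genes had a WT Chd7 peak, against 14.3% of protein-coding genes. The share over acetylated genes was not taken at this width, and the difference was not tested. Beyond the window used above, 3 more genes had a WT Chd7 summit within 50 kb of the start. *Ccnd2* had a pair, at 4.97-fold 37.1 kb downstream of its start (chr6:127114837-127115326) and at 4.69-fold 29.4 kb upstream (chr6:127181375-127181763), both on H3K27ac. *Ccne2* had a peak of 3.16-fold 34.9 kb upstream, within *Trp53inp1*. *Bub1* had one of 5.17-fold 22.8 kb upstream, within *Acoxl* and without H3K27ac.

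Clusters of H3K27ac peaks were also examined, after joining neighbouring peaks and ranking the regions by width times pileup to approximate super-enhancers. Such a region overlapped the window of 4 of the 40 genes (10%), against 4.34% of protein-coding and 8.60% of acetylated genes. The region at *Gins2* ranked 20th, spanned 127.3 kb and held 33 H3K27ac peaks, although *Gins2* itself was one of the 5 genes with the lowest strongest peak. The region at *Ccnd2* (rank 392, 43.2 kb, 12 peaks) ran downstream from the promoter and held 1 Chd7 peak, the one at 37.1 kb. The regions at *Aurkb* (rank 485, 36.5 kb) and *Mcm2* (rank 492, 32.5 kb) held no Chd7 peak. None of the 4 genes had Chd7 in its own window.

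Top2b was measured in other cells, CGNs after 48 hours without SHH, and gives only positions, since the peaks have a fixed width and no height in the files. In WT CGNs 8 of the 40 genes (20%) had a Top2b peak, against 29.0% of protein-coding genes and 37.4% of those acetylated in GNPs. In *Chd7*-deficient CGNs 18 (45.0%) had one, against 38.8% and 55.1%. At the promoter the counts were 4 (10%, against 9.64% and 15.9%) and 10 (25.0%, against 20.3% and 37.4%). In both genotypes the share of the 40 genes was below that of acetylated genes, in the window and at the promoter. The window takes in the gene itself, and the 40 genes were shorter, with a median length of 14.1 kb against 24.5 kb. Shares in the window were not adjusted for length. The *Chd7*-deficient library held more peaks over the whole genome (21505 against 17030), and without replicates a difference between genotypes and one between libraries cannot be told apart.

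The WT peaks lay in the windows of *Mcm6*, *Gins1*, *E2f3*, *Foxm1*, *Ccnd2*, *Ccnb1*, *Cdk4* and *Cdk6*. Of these 8 genes, *Gins1*, *Foxm1*, *Ccnd2*, *Cdk4* and *Cdk6* also had a peak in *Chd7*-deficient CGNs, so 5 of the 40 genes had one in both, against 19.6% of protein-coding and 27.2% of acetylated genes. Peaks in *Chd7*-deficient CGNs without one in WT were called at 13 genes: *Mcm2*, *Mcm5*, *Cdc6*, *Cdt1*, *Cdc45*, *Gins2*, *E2f1*, *Ccne2*, *Ccna2*, *Ccnb2*, *Cdk1*, *Aurkb* and *Mki67*. These are 32.5% of the 40 genes, against 19.2% of protein-coding and 27.9% of acetylated genes. Peaks in WT without one in *Chd7*-deficient CGNs were called at *Mcm6*, *E2f3* and *Ccnb1* (7.50%, against 9.35% and 10.2%). None of the 6 clamp, loader and nucleotide genes had Top2b in either genotype, where 48.1% of protein-coding and 65.3% of acetylated genes had it in at least 1, and with 6 genes this was not tested.

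A minority of the called positions overlapped between genotypes. Overlap of calls between single libraries does not measure a change in binding. In its own comparison of Top2b binding between genotypes, the study reports altered association at a minority of sites. Of 15 Top2b peaks in WT, 5 (33.3%) met one called in *Chd7*-deficient CGNs, against 16.8% of all 17030 WT peaks. They lay in the windows of *Gins1*, *Ccnd2*, *Cdk4* and *Cdk6*, with a pair at *Cdk6*, 956 bp and 63.6 kb from its start. The *Cdk4* one, at −3788 bp, lay within 1 kb of a start of *March9* and not at the *Cdk4* promoter. The *Gins1* one, at −587 bp, also lay within 1 kb of a start of *Abhd12*. At *Foxm1* the WT peak centre lay at −393 bp and the *Chd7*-deficient one at 132 bp from the start, with no overlap. H3K27ac of GNPs overlapped 10 of the 15 WT peaks (66.7%, against 17.4% of all WT peaks) and 13 of the 23 peaks of *Chd7*-deficient CGNs (56.5%, against 26.6%). These shares are those of windows in which every promoter was acetylated.

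None of the 8 Chd7 peaks overlapped a Top2b peak of WT CGNs, where 16.6% of all WT Chd7 peaks did. The *Cdc45* and *Foxm1* promoter peaks (25.0%) overlapped one of *Chd7*-deficient CGNs, against 34.2% of all WT Chd7 peaks. At *Cdc45* the Top2b peak centre lay 139 bp downstream of the start, next to the Chd7 summit at 136 bp.

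A further 110 genes of the same pathways were examined beside the 40: 41 of replication, 29 cell-cycle regulators and 40 of mitosis. H3K27ac was in the window of 103 (93.6%) and at the promoter of 97 (88.2%), at a median promoter fold of 8.75. By kind, the median was 8.10 for the replication genes, 8.64 for the regulators and 9.28 for the mitosis genes. The order of replication and mitosis genes was thus the reverse of that among the 40. The 7 without a window peak were the replication genes *Gins3* and *Pole2*, the Cdk inhibitor genes *Cdkn1a*, *Cdkn1c* and *Cdkn2a*, the phosphatase gene *Cdc25c* and the securin gene *Pttg1*. WT Chd7 peaks were in the window of 13 of the 110 (11.8%): 3 of 41 replication genes, 6 of 29 regulators and 4 of 40 mitosis genes. At the promoter they were at 9 (8.18%): 0 replication genes, 5 regulators and 4 mitosis genes. The promoter share was 15% for the 40 listed genes, 3.65% for protein-coding and 7.95% for acetylated genes. The window share of 11.8% lay above the 6.04% of all protein-coding genes and below the 17.5% of the 40 listed genes. The 11.1% of acetylated protein-coding genes is a less even comparison, since only 97 of the 110 were acetylated at the promoter.

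The highest of these Chd7 peaks stood above the 4.995-fold of *Rfc4*. *Rfc1*, the large subunit of the same clamp loader, had a peak of 6.52-fold in a coding exon 47.6 kb from its start, and the origin recognition gene *Orc5* one of 6.42-fold 63.5 kb from its start. The Cdk inhibitor gene *Cdkn2c* had 5.59-fold and the kinesin gene *Kif23* 5.44-fold at the promoter. The next 6 by fold were *Cdc25a*, *Rbl1*, *Anln*, *Chaf1a*, *E2f5* and *Sgo1*, from 4.82 down to 3.19. Among the mitosis genes of this wider list, *Kif23*, *Anln*, *Sgo1* and *Smc4* had Chd7 at the promoter. No Chd7 peak was called at any of the 110 in *Chd7*-deficient GNPs. Top2b was called at 23 (20.9%) in WT and 49 (44.5%) in *Chd7*-deficient CGNs, near the 20% and 45.0% of the 40 genes. The median length of the 110 genes was 26.1 kb, against 14.1 kb for the 40 and 24.5 kb for acetylated genes, and a role of length was not tested.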

How the data were processed

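Single libraries of P7 GNPs (H3K27ac in WT, Chd7 in WT and *Chd7*-deficient) and of CGNs (Top2b, WT and *Chd7*-deficient) were used. The input libraries were not used here. The authors trimmed reads with Trim Galore, mapped them to mm10 with Bowtie 1.0.0, keeping single alignments, and called Chd7 and H3K27ac peaks with macs2 defaults and Top2b peaks with homer; the control used by macs2 is not given in the sources used here. The deposited pileup is a coverage signal in fragments (scaled for H3K27ac). The deposited −log10 p-value, fold enrichment and −log10 q-value had lost their decimal points, which were restored by division by 100000 and checked against recomputed p-values (largest difference 0.0026 for H3K27ac). The Top2b files hold positions without a score, so members with Top2b were named without ranking by score.

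Peak centres were assigned to GENCODE M21 genes with Python 3.11.15 and numpy 2.4.6. Overlap was at least 1 bp, and H3K27ac peaks were joined into regions within the default distance of homer, cut at a slope of 1. Assignment and motif search were tested on simulated data, where all 1000 planted peaks were assigned as made. Promoters and sequence were read from RefSeq GRCm38.p6. The members, the 110 other genes, the cell markers and the motifs were chosen with earlier results of these data known. The genes named with values were those with a Chd7 or Top2b peak, the 10 highest and 5 lowest by strongest H3K27ac fold, those with a super-enhancer, any without H3K27ac, and up to 10 other pathway genes with Chd7; the remaining values complete the role groups. The genes with Chd7 within 50 kb, the shared promoters and the sequences shown were chosen after their values were seen. With 1 library per condition no test was made. Alternatives changed the peak threshold, window, promoter width, overlap, stitching and gene set.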

Additional observations from a re-analysis of the deposited data

How the results depend on the processing

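No paired analysis was possible because no result comes from a test and each condition is 1 library, which also leaves no replicate to omit. Of 45 alternatives, 30 kept their value within 1.5 times. Among Chd7 peaks of −log10 q 5 or more, 3 genes in place of 7 had one in WT GNPs (2.25% of protein-coding genes) and 3 in place of 6 at the promoter, and at 10 or more the count was 0 (0.241%). The median strongest H3K27ac fold of 9.82 became a pileup of 81.9 fragments, another unit. Joining H3K27ac peaks within 5 kb left 0 of 4 genes with a super-enhancer. For this setting, and for the stricter Chd7 count at the promoter, no share over other genes is given, so these changes have no comparison. For Top2b, in place of 8 and 18 of 40 genes in WT and *Chd7*-deficient CGNs, the gene body alone gave 5 and 11 (24.8% and 30.9% of protein-coding genes), the region around the start alone 5 and 11 (11.5% and 22.5%), and 50 kb on either side 27 and 38 (62.1% and 70.9%). The WT share of the 40 genes was below that of protein-coding genes in the window used (20% against 29.0%) and in the gene body, but above it around the start and at 50 kb (67.5%). The *Chd7*-deficient share was above it except in the gene body (27.5%). The H3K27ac background of 53.0% was 29.5% over all genes and 100% over acetylated genes, and the Chd7 background of 6.04% was 3.39% and 11.1%. Depth is known only through the pileup, and peaks under 12 fragments were not called for Chd7 in WT GNPs.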
